A study of Mus musculus with 8 samples.

Results

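The matrix metalloproteinases Mmp2, Mmp3, Mmp8, Mmp9, Mmp12, Mmp14 and Mmp19 and the tissue inhibitors of metalloproteinases Timp1, Timp2 and Timp3 were followed through the cell types of mouse lung. They are 10 of the 33027 genes in the count table and were picked by name, without a threshold on any measured value. The choice of members and of the gene lists used below was made with earlier results of these data known. Shares of calls among them are therefore set beside those of all genes as description only. All 10 were found in the table.

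Single-cell RNA was sequenced from the right lungs of 8 Sftpc-CreERT2-mTmG mice on a C57BL/6 background. The Sftpc promoter drives the recombinase in alveolar type II (AT2) cells, and both exposure groups carried the reporter and had been given tamoxifen at 8 to 10 weeks of age. Starting 2 weeks later, 4 mice (C2, C5, D2 and D5) breathed smoke of 3R4F research cigarettes (CS) for 6 hours a day on 5 days a week over 10 months, and 4 mice (F1, F3, M1 and M3) breathed room air (RA). Lungs were digested 1 day after the last exposure, and cells with and without the leukocyte antigen CD45 were separated and mixed again at 10% and 90%, so that shares of all cells follow that mixture and not the lung.

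Matrix metalloproteinases are zinc enzymes that cut collagens, elastin, proteoglycans and growth factor precursors. Most are secreted as inactive precursors, and the TIMPs bind the active enzymes and block them. In the lung, loss of elastic fibres and collagen turnover in emphysema have long been studied through this balance of enzyme and inhibitor, with neutrophils, macrophages and fibroblasts as its textbook sources.

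After 1025 multiplets and 7 cycling cells were left out, 40074 cells of 32 annotated types remained, 20330 from CS mice (3317 to 6153 per mouse) and 19744 from RA mice (2553 to 6371 per mouse), with 31094695 to 52753531 UMIs per mouse, a UMI being the tag of 1 captured transcript. Of 69 marker genes, 63 were highest in the type they mark, and 394 cells carried a barcode that also occurred in another library. The CS libraries labelled male (C2 and C5) held Xist, and those labelled female (D2 and D5) held the Y-linked Ddx3y, while the RA libraries matched their labels. No comparison here uses sex, and each group held 2 libraries of either kind by labels or by genes. The cells labelled mast cells held Cpa3, Ms4a2 and Gata2, and Mcpt4 was at 0 in every mouse, so that name is given as a label only. Barcodes annotated M were led by C1qa, C1qb and C1qc and are called interstitial macrophages.

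On GRCm38, Mmp12 (chr9:7344381-7369499), Mmp3 (chr9:7445822-7455975) and Mmp8 (chr9:7558456-7568485) lie in a cluster of 10 Mmp genes on chromosome 9 (chr9:7272514-7699585). The remaining members are spread over the genome: Mmp2 at chr8:92827291-92853420, Mmp9 at chr2:164940780-164955850, Mmp14 at chr14:54431612-54445364, Mmp19 at chr10:128790910-128800824, Timp1 at chrX:20870166-20874735, Timp2 at chr11:118301069-118355740 and Timp3 at chr10:86300372-86349506. Timp1 and Timp3 lie inside Syn1 and Syn3 on the opposite strand, Mmp12 overlaps Mmp1b, Mmp19 overlaps Tmem198b and Gm47093, and Timp2 overlaps Cep295nl. Cep295nl lies on the same strand as Timp2, so a strand setting would not keep their reads apart. For the other partners, on opposite strands, the use of strand in counting is not given in the sources used here, and reads may be shared.

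The 150 bases before the start site are shown for the 3 neighbours on chromosome 9, whose transcripts lay in different cells, and for Mmp14 and Timp2, the members that passed the smoke test in a cell type. The sequences are from RefSeq on GRCm38.p6, which gave 8 windows for 7 of the 10 members. Capitals mark the AP-1 motif TGAGTCA, the TATA motif TATAAA or the GC box GGGCGG, each searched on both strands.
Mmp3, chr9:7445672-7445821, plus strand: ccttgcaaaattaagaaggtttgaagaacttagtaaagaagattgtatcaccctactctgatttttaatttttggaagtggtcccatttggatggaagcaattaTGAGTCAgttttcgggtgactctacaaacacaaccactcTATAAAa
Mmp12, chr9:7347224-7347373, plus strand: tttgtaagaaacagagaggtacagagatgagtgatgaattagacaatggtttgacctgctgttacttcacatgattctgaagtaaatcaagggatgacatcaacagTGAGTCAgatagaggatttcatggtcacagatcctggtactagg
Mmp8, chr9:7558279-7558428, plus strand: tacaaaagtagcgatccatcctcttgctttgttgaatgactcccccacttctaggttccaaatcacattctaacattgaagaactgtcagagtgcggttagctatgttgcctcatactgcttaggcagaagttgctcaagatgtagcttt
Mmp14, chr14:54431448-54431597, plus strand: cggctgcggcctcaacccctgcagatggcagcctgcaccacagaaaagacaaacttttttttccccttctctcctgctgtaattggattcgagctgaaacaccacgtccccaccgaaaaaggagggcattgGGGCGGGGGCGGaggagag
Timp2, chr11:118355412-118355561, minus strand: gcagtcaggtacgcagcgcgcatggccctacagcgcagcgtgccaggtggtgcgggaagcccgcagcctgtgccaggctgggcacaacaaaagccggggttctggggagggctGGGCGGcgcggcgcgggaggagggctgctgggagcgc
The AP-1 motif stood 46 bases before the start of Mmp3 and 44 bases before that of this Mmp12 window, and 2.84% of all 32851 windows of this length held it. The Mmp12 and Timp2 windows printed here lie inside the gene intervals given above, so they belong to start sites downstream of the outermost one. The other Mmp12 window, chr9:7344247-7344396, covers the start of the Mmp12 interval. A TATA motif was found in the window of Mmp3 alone among these 8, against 7.57% of all windows. GC boxes were found in the windows of Mmp14 (2 of them), Timp1, Timp2 and Timp3, against 28.6% of all windows, and the window of Mmp8 and the other one of Mmp12 held none of the 3 motifs.

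Levels are given as transcripts per 10,000: each cell's UMIs of a gene were scaled to 10,000 UMIs in the cell, averaged over the cells of a type in a mouse, and then over mice. The genes fell into 3 descriptive groups by the types in which they were highest. Mmp2, Mmp3 and Timp1 were highest in adventitial fibroblasts, the fibroblasts around vessels and airways, and Mmp8, Mmp9, Mmp12 and Mmp19 were highest in myeloid cells. Timp2, Timp3 and Mmp14 were spread more widely. Timp2 was found across fibroblasts, endothelium, AT1 cells and mesothelium. Timp3 was found in fibroblasts, endothelium, AT1 cells and ciliated cells (6.66 in CS, 7.02 in RA) and was low in mesothelial cells (1.64 in CS, 1.65 in RA). Mmp14 was found in fibroblasts, mesothelial and lymphatic endothelial cells, and was lower in AT1 cells (0.236) and arterial endothelial cells (0.195). Interstitial macrophages, with 3 to 29 cells per mouse too few to be ordered, held Mmp14 as well, in 41 of 101 cells. Timp2 was found in 83.5% of them (mean over 8 mice).

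**Figure D1:**
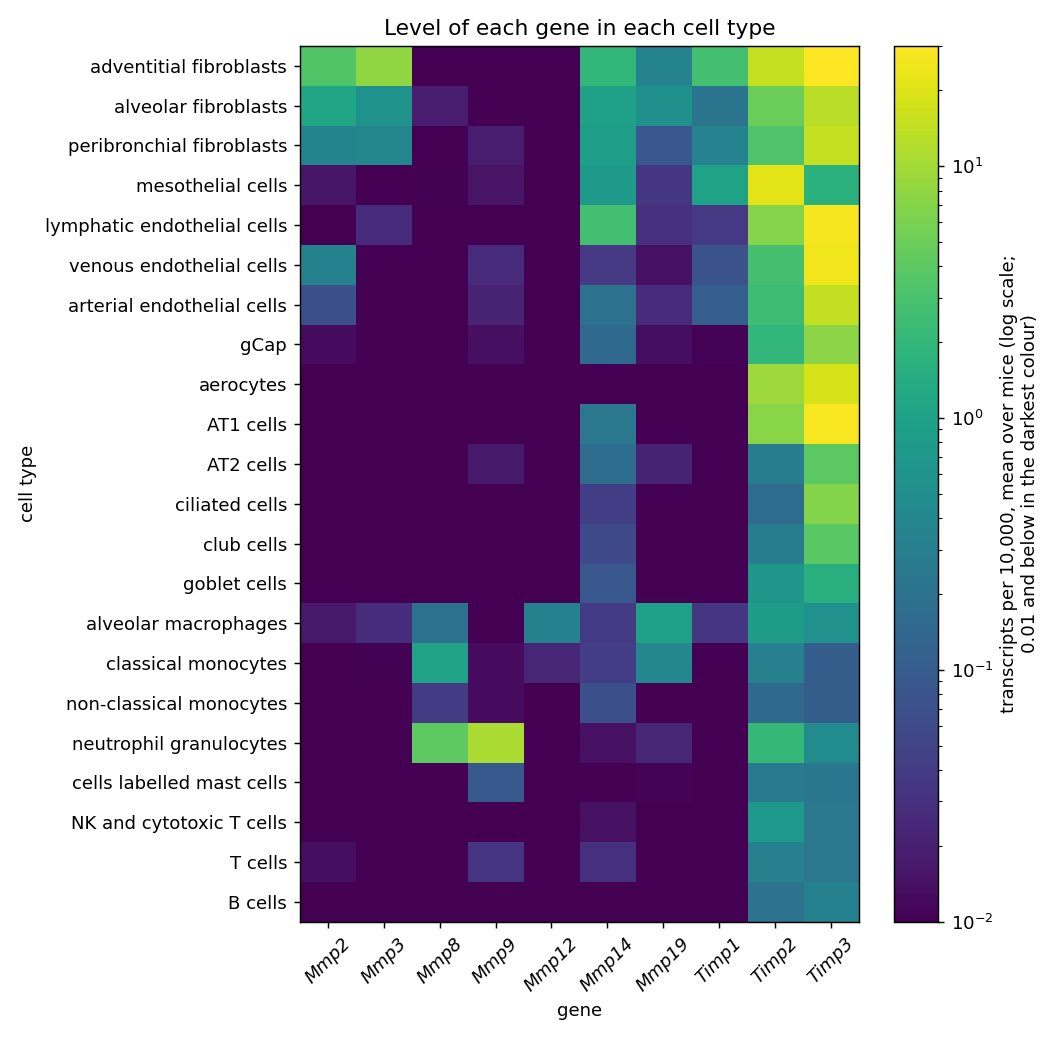
Mean level of the 10 genes (columns) in the 22 cell types with at least 20 cells in at least 3 mice of each group (rows), in transcripts per 10,000 on a logarithmic colour scale. Mmp9 was bright in neutrophil granulocytes (11.0) and Mmp3 in adventitial fibroblasts (7.87), while Timp2 and Timp3 were seen in most rows.

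Mmp2, gelatinase A, is an enzyme of mesenchymal cells that cuts denatured collagen and type IV collagen. In adventitial fibroblasts its level was 5.95, 3.92, 3.26 and 3.72 transcripts per 10,000 in CS mice C2, C5, D2 and D5, and 1.53, 3.94, 2.20 and 2.64 in RA mice F1, F3, M1 and M3. All CS mice lay above 3 of the RA mice, and the RA mouse F3 lay within the CS range, so the groups overlapped. The log2 difference was 0.56 (SE 0.20, adjusted p = 0.122 by limma), which did not pass the threshold of 0.05. Alveolar fibroblasts came next, at 1.84, 1.17, 1.32 and 1.08 in CS and 0.403, 1.22, 0.954 and 0.882 in RA (log2 difference 0.34, SE 0.13, adjusted p = 0.155 by limma, and 0.214 to 0.434 with each mouse left out). F1 was the lowest mouse and C2 the highest in both fibroblast types. The order went on with peribronchial fibroblasts (0.366 ± 0.163, SD, n = 6) and venous endothelial cells (0.334 ± 0.0814, SD, n = 8), which were not separated, since the first was higher in 2 of 6 mice.

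Mmp3, stromelysin 1, cuts proteoglycans and activates other metalloproteinases. Its level in adventitial fibroblasts was 6.26, 7.53, 4.47 and 4.83 in CS mice and 13.2, 12.7, 8.08 and 5.90 in RA mice. The RA mice F1, F3 and M1 lay above every CS mouse and M3 lay among them, and within each of the 4 sequencing lanes, which held 1 CS and 1 RA mouse each, the CS mouse was lower. The log2 difference was -0.66 (SE 0.23, adjusted p = 0.118 by limma and 0.162 with lane as a term), short of the threshold, with 45.4% of CS and 42.7% of RA cells holding a transcript. After every cell was thinned to 1000 UMIs, 21.4% ± 5.29 (SD, n = 4) of CS and 27.2% ± 6.46 (SD, n = 4) of RA cells held one, against 0.103% of B cells, the background type (n = 8). Adventitial fibroblasts exceeded alveolar fibroblasts (0.617 ± 0.367, SD, n = 8) in 8 of 8 mice, 12.8-fold in the means, and no ranges met. In the adventitial fibroblasts the summed level of their own markers Pi16, Dcn and Col14a1 was 65.6 to 85.7 in CS and 85.9 to 102 in RA mice, and the 3 peribronchial fibroblast markers summed to 0.881 to 2.66 in CS and 0.501 to 0.782 in RA. The venous list was likewise apart, at 0.663 to 1.12 against 0.350 to 0.648, and no marker of these 3 lists was at 0 in every mouse. Their part in the values of Mmp2 and Mmp3 was not tested.

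**Figure D2:**
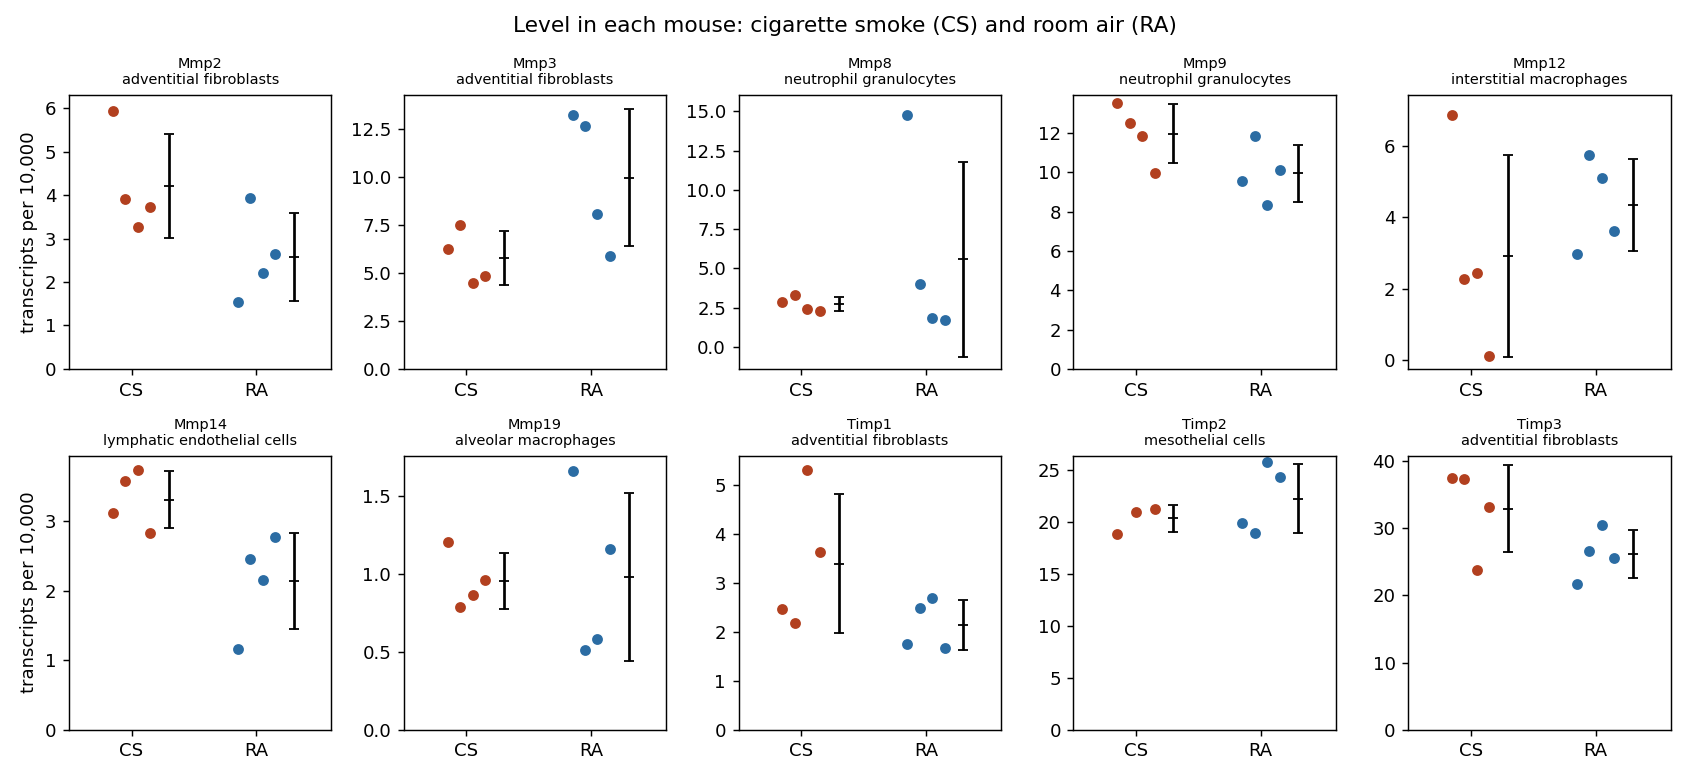
Each gene's level (transcripts per 10,000) in every CS mouse (red) and RA mouse (blue) in its leading cell type, with black bars for the mean ± SD. Mmp12 is shown in interstitial macrophages, which had 3 to 29 cells per mouse, and the mouse C2 is left out of mesothelial cells, of which it had 9. The groups are apart in the panel of Mmp14 in lymphatic endothelial cells and overlap in the other 9.

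Mmp8, neutrophil collagenase, is stored in granules and cuts fibrillar collagens. In neutrophil granulocytes its level was 2.84, 3.34, 2.44 and 2.31 in CS mice and 14.8, 4.00, 1.84 and 1.72 in RA mice. F1 stood far above the other 7 mice, which ranged from 1.72 to 4.00. The same mouse had the highest level in classical monocytes, 3.30 against 0.357 to 0.920 in the others. Chosen after these values were seen, Lcn2 (55.5 in F1, 7.495 to 15.7 elsewhere) and Retnlg (151 in F1, 36.6 to 101 elsewhere) were also highest there among neutrophil granulocytes, while S100a8 was lowest there (256 in F1, 260.1 to 366 elsewhere), and classical monocytes of F1 held S100a8 at 3.70, against 0 to 0.407 in the others. The granule genes Ltf, Camp and Ngp were highest in F3 and not in F1. The alveolar macrophage markers Chil3, Ear2 and Marco summed to 89.1 in neutrophil granulocytes of F1 and 0.108 to 1.82 in those of the others, and to 239 in classical monocytes of F1 and 6.73 to 31.5 in the others, and their part in the Mmp8 values was not tested. The log2 difference of Mmp8 in neutrophil granulocytes was -0.42 (SE 0.41, adjusted p = 0.703 by limma) and became 0.13 (adjusted p = 0.850) without F1.

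Mmp9, gelatinase B, is a gelatinase stored in neutrophil granules. In neutrophil granulocytes it was at 13.5, 12.5, 11.8 and 10.0 in CS and 9.56, 11.8, 8.35 and 10.1 in RA mice, with overlapping groups (log2 difference 0.24, SE 0.15, adjusted p = 0.507 by limma). The next level among the 22 ordered types, 0.0901 ± 0.123 (SD, n = 7), was that of the cells labelled mast cells, and neutrophil granulocytes were above it in 7 of 7 mice. A transcript was found in 85.8% of the 1411 neutrophil granulocytes and in 3 of 2334 B cells. In the few interstitial macrophages, which are outside the ordered types, Mmp9 was at 0, 1.55, 0 and 0 in CS and at 0.818, 1.08, 2.54 and 0.831 in RA mice, with 10 of 101 cells holding it.

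Mmp12, macrophage elastase, is known for its part in smoke-induced emphysema of mice. It was rare here: 13 of 418 alveolar macrophages and 35 of 101 interstitial macrophages held a transcript. In alveolar macrophages the level was 0, 0.587, 1.87 and 0.0417 in CS and 0.0285, 0.128, 0 and 0 in RA mice. No Mmp12 was found in 42 cells of C2, 31 of M1 and 53 of M3, which allows shares of up to 7.14%, 9.68% and 5.66% of cells with a UMI, so a difference between groups was not detectable at this depth. One cell of D2 held 43.8% of the Mmp12 summed over the alveolar macrophages of all mice. Interstitial macrophages had 6.88, 2.27, 2.44 and 0.115 in CS and 2.97, 5.75, 5.12 and 3.61 in RA mice, from 3, 14, 14 and 7 and from 29, 15, 11 and 8 cells. Mature dendritic cells, 40 in all, averaged 2.45 ± 2.07 (SD, n = 7). Mmp12 was detected in too few cells of every testable type to enter the smoke test.

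Mmp19, an enzyme described in macrophages and fibroblasts, was highest in alveolar macrophages at 1.21, 0.791, 0.863 and 0.963 in CS and 1.66, 0.512, 0.583 and 1.16 in RA mice, with no separation (log2 difference 0.02, SE 0.16, adjusted p = 0.976 by limma). In alveolar fibroblasts it was at 0.291, 0.449, 0.586 and 0.495 in CS and 1.25, 0.532, 0.563 and 0.324 in RA mice (log2 difference -0.17, SE 0.13, adjusted p = 0.443 by limma, and -0.272 to -0.0178 with each mouse left out). F1 was the highest mouse in both types, as it was for Mmp8. Classical monocytes (0.402 ± 0.0558) and adventitial fibroblasts (0.365 ± 0.109, both SD, n = 8) followed.

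Mmp14, a membrane-bound enzyme that activates the Mmp2 precursor at the cell surface, was highest in lymphatic endothelial cells. There it was at 3.11, 3.57, 3.73 and 2.83 in CS and 1.16, 2.46, 2.16 and 2.77 in RA mice. Every CS mouse lay above every RA mouse, but the log2 difference of 0.48 (SE 0.17, and 0.316 to 0.583 with each mouse left out) had an adjusted p of 0.371 by limma. Those levels rested on 24 to 103 cells per mouse. Peribronchial fibroblast markers among these cells summed to 0.0441 to 0.0830 in CS and 0 to 0.0385 in RA mice. Alveolar fibroblast markers summed to 1.88 to 3.67 in CS and 0.347 to 1.95 in RA mice, overlapping narrowly. The part of either list was not tested. In adventitial fibroblasts Mmp14 was at 1.84, 2.13, 1.98 and 2.08 in CS and 1.79, 2.44, 1.75 and 1.99 in RA mice, a log2 difference of 0.01 (SE 0.09, adjusted p = 0.954 by limma). Alveolar and peribronchial fibroblasts and mesothelial cells followed at 0.986, 0.864 and 0.760, with overlapping ranges, and AT1 cells at 0.236 were lower than mesothelial cells in 7 of 7 mice.

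Timp1, the inducible inhibitor, was found chiefly in adventitial fibroblasts, at 2.47, 2.18, 5.30 and 3.63 in CS and 1.75, 2.49, 2.68 and 1.67 in RA mice. D2 and D5 lay above every RA mouse, and C2 and C5 lay among them (log2 difference 0.44, SE 0.19, adjusted p = 0.1999 by limma). Single cells weighed heavily: 1 of the 116 cells of D2 held 50.1% of that mouse's Timp1, and 1 cell held 33.9% in C2 and 20.5% in D5. Without D2 the log2 difference was 0.25 (adjusted p = 0.377 by limma). Mesothelial cells held 1.26, 0.935 and 0.906 in CS mice C5, D2 and D5 and 1.03, 1.008, 0.960 and 1.08 in RA mice (log2 difference 0.01, SE 0.07, adjusted p = 0.979 by limma). Adventitial fibroblasts were above mesothelial cells in 7 of 7 mice, and these above peribronchial fibroblasts in 6 of 6.

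Timp2 binds the Mmp14 and Mmp2 precursor complex as well as active enzymes. It was highest in mesothelial cells, at 18.8, 20.9 and 21.2 in the 3 CS mice with enough cells and 19.9, 18.9, 25.8 and 24.3 in RA mice (log2 difference -0.11, SE 0.14, adjusted p = 0.756 by limma, and -0.185 to -0.0415 with each mouse left out). In adventitial fibroblasts it was at 14.1, 12.7, 13.4 and 12.8 in CS and 13.3, 13.5, 18.7 and 18.6 in RA mice (log2 difference -0.24, SE 0.14, adjusted p = 0.332 by limma). M1 and M3, the RA libraries labelled male, were the highest mice in both types. Aerocytes, the capillary cells of gas exchange, followed at 9.21 ± 0.741, before AT1 cells at 7.13 ± 0.942 and lymphatic endothelial cells at 7.04 ± 0.999 (SD, n = 8). The last pair was not separated, with AT1 cells higher in 4 of 8 mice.

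Timp3, the inhibitor that is bound to the extracellular matrix, was at 37.5, 37.3, 23.8 and 33.2 in adventitial fibroblasts of CS mice and 21.7, 26.6, 30.4 and 25.6 in those of RA mice (log2 difference 0.31, SE 0.16, adjusted p = 0.261 by limma). AT1 cells held 32.4, 26.1, 23.4 and 25.7 in CS and 37.9, 26.3, 21.6 and 28.8 in RA mice (log2 difference -0.07, SE 0.16, adjusted p = 0.861 by limma). Lymphatic and venous endothelial cells were close to both, at 27.3 ± 4.81 and 25.6 ± 4.52 (SD, n = 8), and none of these 4 types was higher than the next in all 8 mice. The spread between mice was wide in aerocytes, where F1 and C2 held 28.7 and 24.9 and D2, M1 and M3 held 12.5, 12.7 and 13.6. F1 and C2 shared sequencing lane 1 and were also the highest mice in AT1 cells. The part of the lane in these values was not tested.

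To see where the transcripts of a gene lay, the UMIs of each mouse were summed by cell type. Such sums also depend on how many cells of a type were loaded and on the UMIs per cell. The median was 2295 UMIs in neutrophil granulocytes and 15907 in ciliated cells. Adventitial fibroblasts, 3.50% of all cells, held 67.5% ± 8.09 of Mmp2, 89.4% ± 5.48 of Mmp3 and 56.9% ± 20.2 of Timp1 transcripts (SD, n = 8). Neutrophil granulocytes, 3.52% of cells, held 88.3% ± 5.41 of Mmp9 and 64.9% ± 11.2 of Mmp8, and classical monocytes a further 24.2% ± 12.1 of Mmp8. Interstitial macrophages were 0.252% of cells and held 56.9% ± 25.7 of Mmp12, followed by mature dendritic cells (25.2% ± 25.3) and alveolar macrophages (6.58% ± 7.81). Mmp14 was shared by adventitial fibroblasts (26.3% ± 7.77), mesothelial cells (18.1% ± 13.2), alveolar fibroblasts (13.3% ± 6.97) and lymphatic endothelial cells (12.7% ± 8.22). Alveolar fibroblasts held 32.1% ± 13.6 of Mmp19. For Timp2, mesothelial cells held 34.1% ± 20.1, and for Timp3 no type held more than the 17.3% ± 6.31 of ciliated cells (SD, n = 8 throughout). Ciliated cells were 8.78% of all cells, and their Timp3 level was 6.66 in CS and 7.02 in RA mice, against 29.5 in adventitial fibroblasts.

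**Figure D3:**
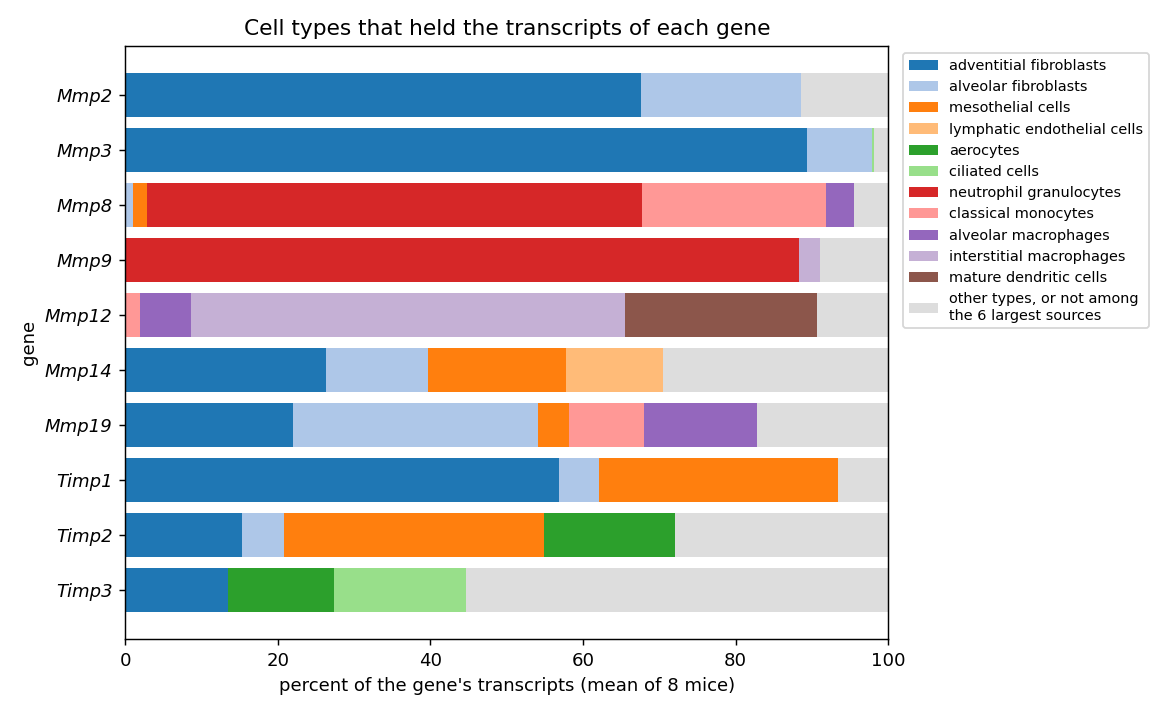
Percent of each gene's transcripts (horizontal axis, mean of 8 mice) that lay in each cell type (colours). Grey holds the types without a colour and any type not among the gene's 6 largest sources. Mmp3 and Mmp9 are nearly 1 colour, at 89.4% and 88.3%, while the largest source of Timp3 held 17.3%.

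The share from the leading type was compared between CS and RA mice by exact two-sided permutation tests over the 8 mice, and no member passed, with p from 0.171 to 0.8286 and 0.0286 as the smallest p possible. With every cell type weighted alike, the share of Mmp14 from adventitial fibroblasts was 4.08 points lower in CS (difference -4.08, exact p = 0.0286). That p came from an alternative setting and was not adjusted over members or settings. By summed UMIs the Mmp14 test gave an exact p of 0.371. The widest gaps were those of Mmp12, 43.8% in CS and 70.02% in RA mice from interstitial macrophages (p = 0.171, exact), Timp1, 66.8% and 46.9% from adventitial fibroblasts (p = 0.171, exact), and Timp2, 24.2% and 44.0% from mesothelial cells (p = 0.257, exact). The 8 mice contributed 9 (C2) to 358 (M1) mesothelial cells each, and with types weighted alike the Timp2 difference shrank from -19.9 to -3.12 points. The Mmp12 difference of -26.3 points became -12.7 without D5. In D5, 2.94% of Mmp12 lay in its 7 interstitial macrophages, of which 1 held a transcript, and 79.4% in its 4 mature dendritic cells. With 35 of 101 interstitial macrophages holding Mmp12 in all mice, these shares rest on few cells. The Timp1 difference went from 19.9 to 13.03 without C2, and that of Timp2 to -12.9 without C2 and -11.7 without M1.

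The smoke comparison asked, for each type, which genes differed between CS and RA mice by limma on log2(transcripts per 10,000 + 1), a scale that understates changes of low genes. Of the 220 pairs of a member with 1 of the 22 testable types, 64 passed the filter of a transcript in at least 10% of the type's cells in either group, and 9 of the 10 members were among them. After Benjamini-Hochberg adjustment over all genes of a type, 2 of the 64 were higher in CS and 0 were lower, with 15 at an unadjusted p under 0.05. Of the 2 calls, that of Mmp14 in ciliated cells had passed the filter through the CS group alone. Over all 172262 gene and type pairs, 0.712% were called higher and 0.518% lower, and 15.2% had an unadjusted p under 0.05 against 23.4% of the 64. The members were chosen with earlier results of these data known, so these shares are no test of the set. Read by the mice alone, 5 of the 64 had every CS mouse above every RA mouse (background 6.01%) and 2 had every CS mouse below (background 4.67%). The median log2 difference was 0.02 over the 64 and 0.01 over all pairs.

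Both calls were in ciliated cells, where 3 members were tested and 2.72% of 11077 genes were called higher and 1.91% lower. Timp2 was at 0.210, 0.204, 0.204 and 0.216 in CS and 0.103, 0.127, 0.136 and 0.137 in RA mice. The CS mice lay in a narrow band above all RA mice, a ratio of the means of 1.66 (log2 difference 0.10, SE 0.016, adjusted p = 0.00919 by limma). The call held in every alternative fit, with adjusted p from 0.00743 to 0.0441. The level itself was near the bottom of the series, 0.167 ± 0.0456 and 21st of 22 types, and B cells were at 0.120 to 0.264 in CS and 0.0590 to 0.420 in RA mice. Thinned to 1000 UMIs, 2.65% ± 0.554 of CS and 1.501% ± 0.416 of RA ciliated cells held Timp2 (SD, n = 4), beside 2.23% ± 1.08 of B cells (SD, n = 8). Median depths were 16551 and 15010 UMIs in CS and RA ciliated cells and 4055 in B cells. The arterial markers were apart between the groups in ciliated cells, as given below, and their part in the Timp2 values was not tested. Without thinning, 8.86% of B cells held Timp2, against 0.143% for Mmp2, so B cells are not shown to be free of Timp2. Whether the ciliated values are background cannot be told from this comparison. The thinned shares of ciliated cells were close to that of B cells, and no expression of Timp2 by ciliated cells is read from them.

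Mmp14 in ciliated cells was at 0.104, 0.0588, 0.0501 and 0.0578 in CS and 0.0231, 0.0137, 0.0308 and 0.0168 in RA mice, with every CS mouse above every RA mouse and C2 highest. The ratio of the means was 3.21 (log2 difference 0.06, SE 0.016, adjusted p = 0.0452 by limma). A transcript was found in 10.3% of CS and 4.09% of RA cells, so the gene passed the filter through the CS group alone. Leaving out any of the 8 mice ended the call: without C2 the gene was no longer tested, and without each other mouse the adjusted p was 0.0561 to 0.0995. It was also lost with lane as a term (0.0712), after median centring (0.0763), with no filter on genes (0.165) and when p was adjusted over all types (0.109), and it was not tested under a filter of 25% of cells. B cells held Mmp14 at 0 to 0.0157, below every CS mouse. Thinned to 1000 UMIs, 0.512% ± 0.442 of CS and 0.117% ± 0.136 of RA ciliated cells held it (SD, n = 4), and 0.1004% ± 0.152 of B cells (SD, n = 8).

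Chosen after their values were seen, other airway epithelial types also had every CS mouse above every RA mouse for Mmp14, without passing the test. Club cells were at 0.0935, 0.0811, 0.0669 and 0.0999 in CS and 0.0274, 0.0151, 0.0376 and 0.0447 in RA mice (log2 difference 0.07, SE 0.016, adjusted p = 0.112 by limma), and as in ciliated cells the gene passed the filter through the CS group alone, with a transcript in 21.0% of CS and 7.77% of RA cells. Goblet cells were at 0.160, 0.140, 0.132 and 0.105 in CS and 0.0108, 0.0181, 0.0766 and 0.0593 in RA mice (log2 difference 0.12, SE 0.030, adjusted p = 0.125 by limma). Thinned to 1000 UMIs, 1.42% ± 0.665 of CS and 0.475% ± 0.550 of RA club cells held Mmp14, but 0 of the 200 CS goblet cells did, which allows a share of up to 1.5%, against 0.182% ± 0.365 in RA (SD, n = 4), so the goblet difference was not detectable at that depth. Basal cells, with 10 to 37 cells per mouse and too few for the test, were at 0.931, 0.708, 0.691 and 0.764 in CS and 0.313, 0.503, 0.494 and 0.321 in RA mice, again apart. In neuroendocrine cells, 4 to 18 per mouse, the groups overlapped, at 0 to 0.655 in CS and 0.138 to 0.320 in RA mice. All these types come from the same mice, so they are no independent support for the ciliated values. The arterial markers Gja5, Gja4 and Bmx summed to 0.0570 to 0.0750 in CS and 0.0227 to 0.0483 in RA ciliated cells, and to 0.488 to 0.717 and 0.0880 to 0.256 in goblet cells, where the smooth muscle markers were also apart (0.0174 to 0.0606 and 0.00157 to 0.0142). Adventitial fibroblast markers in goblet cells summed to 0.197 to 0.632 in CS and 0.000657 to 0.219 in RA mice, overlapping narrowly, and their part was not tested. The lists of adventitial, alveolar and peribronchial fibroblasts, mesothelial and lymphatic endothelial cells, the ordered types with most Mmp14, overlapped between the groups in ciliated cells. So did the lists of aerocytes and AT1 cells, which rank high in Timp2, and that of interstitial macrophages. No marker of these lists was at 0 in every mouse. Bmx was higher in basal cells (2.72) than in arterial endothelial cells (2.53), so the list is not specific to the latter, and basal cells held Mmp14 at the levels given above. The part of arterial or basal cell transcripts in the Mmp14 values was not tested, and arterial endothelial cells were themselves at 0.186 in CS and 0.205 in RA mice for Mmp14.

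**Figure D4:**
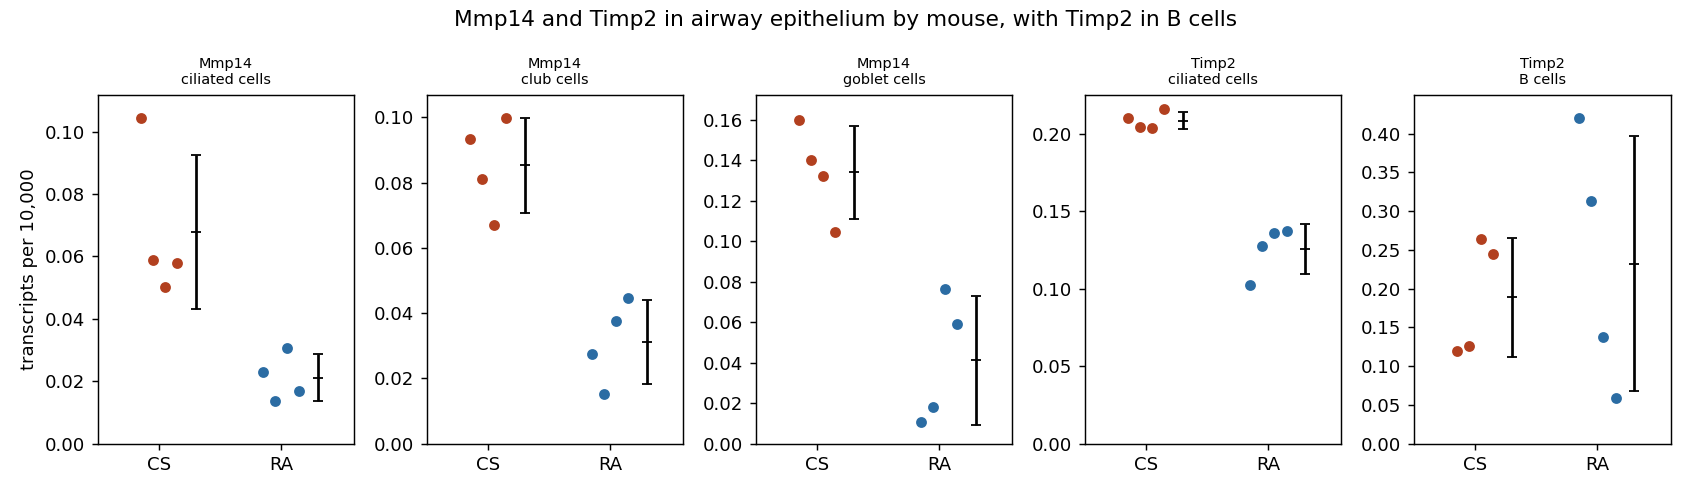
Mmp14 in ciliated, club and goblet cells and Timp2 in ciliated cells and B cells, in transcripts per 10,000 for each CS mouse (red) and RA mouse (blue), with bars for the mean ± SD. Every CS mouse lies above every RA mouse in the 4 airway panels, while B cells overlap and reach 0.420.

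Of the 64 member tests 56.3% had a log2 difference above 0, against 54.2% of all tests. Across all 11 types where Mmp14 was tested, the log2 difference was above 0 in 10 and below in arterial endothelial cells (-0.03), and the groups were apart in 4 types, of which ciliated and club cells entered through the CS group alone. Over all genes and types, 6.01% of pairs were apart with CS higher. The share of all genes apart in each of these types was not computed. AT1 cells (0.284 in CS, 0.187 in RA, adjusted p = 0.224 by limma) and AT2 cells (0.1997 and 0.142, adjusted p = 0.674 by limma) also had higher CS means without passing. Mmp2 had higher CS means in all 4 types tested and Mmp8 lower ones in all 3, with the smallest adjusted p at 0.122 and 0.596 by limma, and without F1 the Mmp8 difference was above 0 in neutrophil granulocytes (0.13) and classical monocytes (0.09). Timp3 was lower in CS in 11 of 15 types and higher in the 3 kinds of fibroblasts and in alveolar macrophages, with differences from -0.53 in goblet cells to 0.45 in alveolar fibroblasts and none past the threshold (smallest adjusted p = 0.184 by limma). Timp2 was higher in CS in 13 of 20 types. The largest Timp2 difference was in alveolar macrophages, which held 1.61, 0.937, 0.805 and 0.9998 in CS and 0.894, 0.444, 0.141 and 0.602 in RA mice (log2 difference 0.47, SE 0.15, adjusted p = 0.236 by limma).

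**Figure D5:**
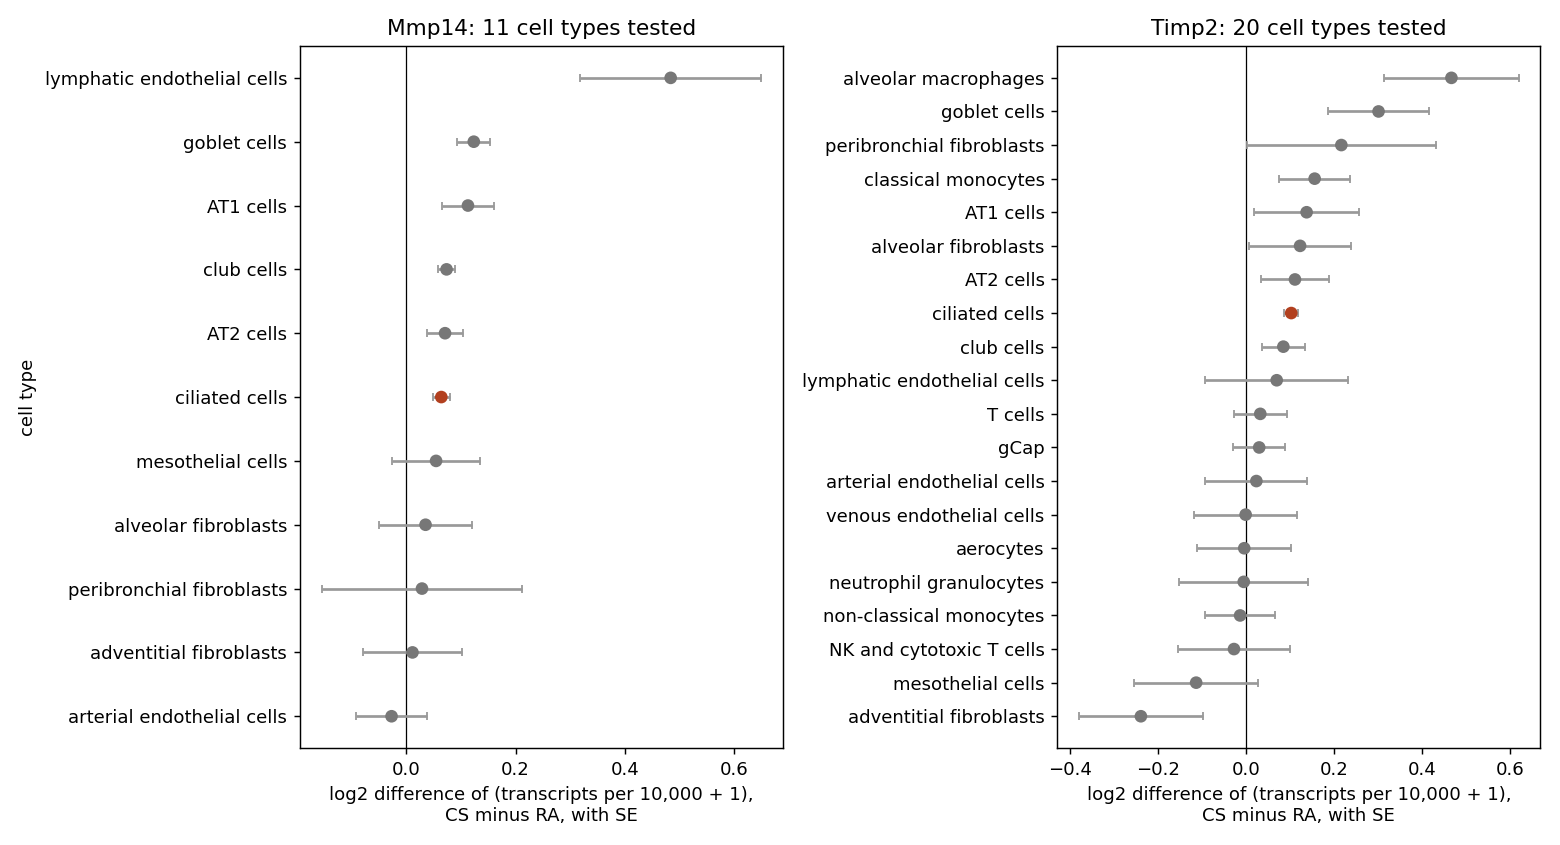
Log2 difference of CS minus RA (horizontal axis, on transcripts per 10,000 + 1) with SE for Mmp14 in 11 cell types and Timp2 in 20, red where the adjusted p was under 0.05. Ciliated cells are the red point of either panel, at 0.06 and 0.10.

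Besides the calls, 2 pairs had every CS mouse below every RA mouse and missed the threshold. Timp3 in goblet cells was at 0.457, 1.46, 1.15 and 1.38 in CS and 2.23, 1.92, 1.88 and 1.93 in RA mice (log2 difference -0.53, SE 0.15, adjusted p = 0.184 by limma). Arterial markers in goblet cells summed to 0.488 to 0.717 in CS and 0.0880 to 0.256 in RA mice. Smooth muscle markers summed to 0.0174 to 0.0606 and 0.00157 to 0.0142. The part of both lists in the Timp3 values was not tested. Timp1 in arterial endothelial cells was at 0.00243, 0.0615, 0.105 and 0.0109 in CS and 0.184, 0.260, 0.130 and 0.125 in RA mice (adjusted p = 0.166 by limma), with 4.47% of CS and 12.5% of RA cells holding it, so that it passed the filter through the RA group alone. In these cells the gCap markers summed to 10.7 to 12.4 in CS and 13.7 to 18.3 in RA mice. The arterial markers summed to 6.65 to 8.89 and 4.17 to 6.19. The part of both lists in the Timp1 values was not tested.

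Whether smoke differences were unequal in the 2 ordered types with the most of a member was tested by exact two-sided permutation over mice, and no p was under 0.05. Nearest was Mmp14, whose log2 difference was 0.48 in lymphatic endothelial cells and 0.01 in adventitial fibroblasts, apart by 0.47 (within-group SD 0.24, exact p = 0.0571, smallest possible 0.0286). With transcripts summed in place of averaged, the gap was 0.60 (exact p = 0.0286, not adjusted over members or settings). For Timp2 in mesothelial cells and adventitial fibroblasts the gap was 0.15 (exact p = 0.0857), for Mmp2 in adventitial and alveolar fibroblasts 0.22 (exact p = 0.143), and for the other members p ran from 0.171 to 0.600 (exact). The Mmp12 pair was alveolar macrophages and classical monocytes, and 2 of 671 classical monocytes held it. That test therefore restates the alveolar macrophage values, and interstitial macrophages and mature dendritic cells were not compared.

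Within adventitial fibroblasts, cells with Mmp2 held Mmp14 more often than cells without it. The share with Mmp14 was 78.5% against 53.0% in CS and 80.6% against 61.4% in RA, in 4 of 4 mice of each group. Timp1 also went with Mmp2, at 65.6% against 54.1% in CS and 68.4% against 53.9% in RA, in 4 of 4 mice of each. Mmp3 did not share that pattern, found in 44.5% of Mmp2-holding and 44.6% of other cells in CS and in 40.7% and 41.6% in RA. Cells with Mmp3 did hold Timp1 more often, at 70.7% against 58.6% in CS (4 of 4 mice) and 71.5% against 59.1% in RA (3 of 4), and Mmp14 at 77.5% against 73.5% in CS (4 of 4) and 79.8% against 73.1% in RA (3 of 4). Deeper cells hold more of every gene, and depth was not matched in these shares.

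Across the 22 types, Mmp2 and Mmp3 (Pearson's r = 0.953), Mmp8 and Mmp9 (0.914) and Mmp3 and Timp1 (0.873) were the member pairs with the most similar profiles. Of 6848 genes compared, those nearest to Mmp2 were Prrx1, Dact1 and Srpx (0.980 to 0.962), to Mmp3 Htra3, Dact1 and Gdf10 (0.996 to 0.992), and to Timp1 Cygb, Gfpt2 and Adgrd1 (0.987 to 0.968). Mmp9 was followed most closely by Mrgpra2b, Ngp and Cstdc4, all above 0.999, and Mmp12 by Ear10, F7 and Marco (0.998 to 0.997). Some of these profiles hang on 1 type: Mmp9 fell from 11.0 to 0.0901 in the next type, Mmp3 from 7.87 to 0.617 and Mmp12 from 0.332 to 0.0238. A high r then says little more than that both genes peak in the same type. The Mmp12 peak came from 13 of 418 alveolar macrophages. The Mmp12 profile leaves out interstitial macrophages and mature dendritic cells, its main sources, which had too few cells for the 22 types, so this likeness covers the alveolar macrophages and the other ordered types alone. Mmp8 was nearest to Gm34084, AC148019.2 and Slc7a11, and Mmp19 to Abcd2, Pla2g15 and St7. Mmp14 went with Spsb1, Osr1 and Il11ra1 (0.942 to 0.907), Timp2 with Cavin3, Serpinh1 and Ctdsp2, and Timp3 with Pard3b, Tns2 and Fermt2, the last 2 sets between 0.897 and 0.887. All points of such a profile come from the same 8 libraries.

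Of 17 other metalloproteinases and Timp4, 16 were in the table and 7 reached the filter in some type, with 0 of 35 tests called higher and 1 lower (2.86% called, against 1.23% of all tests). The 1.23% pools all 22 types, of which 10 had no called gene. In ciliated cells, the type of several list calls, 2.72% of genes were called higher and 1.91% lower. No share matched by type was computed for any of the lists. Timp4, the remaining inhibitor, was lower in ciliated cells of CS mice, at 0.326, 0.298, 0.260 and 0.297 against 1.13, 0.602, 0.622 and 0.544 in RA mice (log2 difference -0.40, SE 0.085, adjusted p = 0.0285 by limma). The call was lost without any 1 of the CS mice (adjusted p up to 0.0768). Among the rest, Mmp15 in ciliated cells (2.02), Mmp23 in adventitial fibroblasts (1.45) and Mmp11 in AT1 cells (0.940) had the highest levels.

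Among 15 related metalloproteinases of the Adam and Adamts families, 5 of 156 tests were called higher in CS and 0 lower (3.21% called, against 1.23% of all tests). Adam8, a metalloproteinase-disintegrin of leukocytes, was higher in ciliated cells, at 1.34, 1.12, 1.24 and 1.67 in CS and 0.546, 0.578, 0.833 and 0.733 in RA mice (log2 difference 0.48, SE 0.075, adjusted p = 0.00892 by limma), and kept its call without any 1 mouse but not with no filter on genes (adjusted p = 0.0582). The arterial marker list, apart between the groups in ciliated cells as given above, stands beside the ciliated calls of Timp2, Timp4, Adam8, Adam10, Plaur and Serpine2 as well, and its part in them was not tested. Adam10, a sheddase of membrane proteins, was higher in ciliated cells (0.499 against 0.373, adjusted p = 0.0301 by limma) and in gCap, the general capillary cells (1.31 against 0.931, adjusted p = 0.0259 by limma). These calls were lost without C2, C5, D5, F3 or M3 in ciliated cells and without C2, D2, D5 or F3 in gCap. The procollagen-processing Adamts2 in alveolar fibroblasts (2.18 against 1.45, adjusted p = 0.0433 by limma) and Adamts10 in adventitial fibroblasts (1.62 against 0.956, adjusted p = 0.0421 by limma) were called higher in CS, and leaving out any 1 mouse ended both calls. In alveolar fibroblasts the arterial markers summed to 0.9902 to 1.28 in CS and 0.495 to 0.796 in RA mice and the mesothelial markers to 0.0168 to 0.0423 and 0.0425 to 0.106, and in adventitial fibroblasts the 3 lists given with Mmp3 were apart. Their part in the Adamts2 and Adamts10 values was not tested.

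Of 12 genes of activation and clearance, 11 were tested, with 1 of 138 tests higher in CS and 4 lower (3.62% called, against 1.23% of all tests). Of the 11 calls in these 3 lists, 0 were kept with no filter on genes, 6 with summed transcripts, 3 with lane as a term (Timp4, Adam8 and Plaur in ciliated cells) and 1 with adjustment over all types (Adam8). Plaur, the urokinase receptor that holds plasminogen activation at the cell surface, was higher in CS in ciliated cells, at 0.823, 1.35, 2.32 and 1.67 against 0.248, 0.188, 0.755 and 0.297 in RA (log2 difference 0.87, SE 0.17, adjusted p = 0.0201 by limma). It was lower in CS in gCap, at 2.04, 2.48, 2.704 and 2.26 against 7.01, 4.79, 3.35 and 4.03 (log2 difference -0.75, SE 0.17, adjusted p = 0.0311 by limma), and in arterial endothelial cells (1.86 against 3.49, adjusted p = 0.0450 by limma). The groups were apart in all 3 types; the difference between the types was not tested. The ciliated call was lost without D5, F3 or M3, the gCap call without C2, D2, D5 or F3, and the arterial call without any 1 mouse. Serpine2, an inhibitor of plasminogen activators, was lower in CS ciliated cells (2.27 against 3.02, adjusted p = 0.0326 by limma), and Bsg, an inducer of metalloproteinases, in gCap (1.57 against 2.15, adjusted p = 0.0286 by limma). Leaving out C2, D2, D5, M1 or M3 ended the call of Serpine2, and leaving out C2, D2, D5 or F3 that of Bsg. In gCap their own markers Gpihbp1, Plvap and Aplnr summed to 19.0 to 22.7 in CS and 25.5 to 30.6 in RA mice, and in arterial endothelial cells the gCap list was at 10.7 to 12.4 and 13.7 to 18.3 and their own at 6.65 to 8.89 and 4.17 to 6.19, whose part in the calls of Adam10, Plaur and Bsg there was not tested.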

How the data were processed

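Per the study's methods, the authors prepared 10x 3' v3 libraries, aligned reads with STAR 2.7.3a (GRCm38.p6, GENCODE annotation with eGFP and tdTomato added; STAR and the build are also in the submitters' processing notes), kept spliced and unspliced UMIs, removed cells under 1000 transcripts or over 5% mitochondrial, and subtracted free RNA with SoupX 1.2.2. The deposited values are therefore estimated counts: 1.28% of them were whole within 1e-06, so no count model was used. Cell types and mice are the authors' deposited annotation, whose cell numbers per group differ from those in the study's text, for a reason not resolved here. Members and gene lists were chosen with earlier results of these data known.

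Computed here: transcripts per 10,000 per cell, averaged per mouse and type (at least 20 cells), in the 22 types with at least 3 such mice per group. Each type was fitted with limma 3.58.1 (R 4.3.3, trend) on log2(mean + 1), genes in at least 10% of cells of either group, Benjamini-Hochberg threshold 0.05, and the step was tested on simulated data. Exact two-sided permutation tests used 70 assignments of mice (35 where 1 mouse was missing). Depth was 31094695 to 52753531 UMIs per mouse. Replicates are separate mice. Genes named by rule were all members in their 2 highest ordered types and wherever called, called genes of the lists, and the 3 most similar genes. One listed gene, Mmp7, was not analysed here. Intervals and limits cover counting error only. Alternatives are given at the end.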

Additional observations from a re-analysis of the deposited data

Results flagged for a closer look

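In 65 groups of 4 mice looked at for the levels and shares above, 3 had 1 mouse far from the other 3 by Dixon's criterion, near the 3.25 that chance gives at 1 in 20. Mmp8 in classical monocytes of RA mice was 3.30 transcripts per 10,000 in F1 and 0.357 to 0.790 in the others. Mmp12 in the same cells was 0.191 in F1, from 2 of 85 cells, and 0 in F3, M1 and M3. Mmp14 in ciliated cells of CS mice was 0.104 in C2 and 0.0501 to 0.0588 in the others. Classical monocytes of F1 also held S100a8 (3.70), Retnlg (2.56) and Lcn2 (4.74), genes of neutrophil granulocytes, at 0 to 0.407 in the other mice, and alveolar macrophage markers summing to 239 (6.73 to 31.5 in the others). Their part in the Mmp8 and Mmp12 values was not tested.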

How the results depend on the processing

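The count of members called higher in CS was 2 and became 1 with genes in at least 25% of cells, no filter on genes, lane as a term, median centring or adjustment over all types, and 1 to 1 when each mouse was left out; it stayed at 2 with a pseudocount of 0.1, summed transcripts and at least 50 cells. The count called lower was 0 throughout. Timp2 in ciliated cells was the call that stayed, and every lost call was that of Mmp14 there. Calls over all genes, 2118 as reported, were 663 with lane as a term, 670 with adjustment over all types, 118 with no filter, 2880 with summed transcripts, and 456 to 2170 with a mouse left out.

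Directions of smoke differences reversed only for pairs of a member and a type that were not called. With each mouse left out, the log2 difference ranged from -0.712 to 0.134 for Mmp8 in neutrophil granulocytes, -0.463 to 0.0912 for Mmp8 in classical monocytes (both above 0 without F1 alone), -0.0268 to 0.0803 for Mmp14 in adventitial fibroblasts, -0.0989 to 0.173 for Mmp19 in alveolar macrophages, -0.0722 to 0.0508 for Timp1 in mesothelial cells and -0.191 to 0.0707 for Timp3 in AT1 cells. With transcripts summed, the smoke differences of Mmp14 in lymphatic endothelial cells and adventitial fibroblasts were apart by 0.60 (exact p = 0.0286) in place of 0.47. With each type weighted alike, the share of Mmp14 in its leading type was 4.08 percentage points lower in CS (value -4.08, exact p = 0.0286), and those of Mmp3 (0.261 points), Mmp8 (0.318) and Timp3 (-0.0109) changed sign (exact p from 0.914 to 1). With a mouse left out, the share difference reached -3.24 points for Mmp2 (2.08 with all mice), 0.635 for Mmp19 (-5.82) and -0.850 for Timp3 (1.48). The exact p values were not adjusted over members or settings. Replicate numbers only name mice. Each lane held 1 CS and 1 RA mouse, so the fit with lane as a term is the paired one; among members it ended the call of Mmp14 in ciliated cells (adjusted p = 0.0712 by limma) and kept that of Timp2 (0.0425). Low-abundance members such as Mmp12 are limited by cell number.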
